A study of Homo sapiens with 30 samples.

Results

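The 12 libraries described here came from SW1783 cells treated for 24 h with a water extract of Palmul-tang or Sibjeondaebo-tang, both multi-herb formulas of Korean medicine, at 100 or 20 µg/mL. They were chosen by label from 30 libraries in all, and the 6 libraries at 100 µg/mL were compared with the 6 at 20 µg/mL, with the formula kept as a term of the model. Each formula had 3 libraries per dose. SW1783 is an established line from a human astrocytoma. The study sequenced the RNA of these cells after herbal extracts at 3 doses, and the question asked of the pair of lower doses is which genes respond first when the dose goes up 5-fold. Every fold change below is between doses, and none is relative to vehicle. For some genes the levels in 3 vehicle libraries are given beside the doses. Vehicle was given for the same time with 0.1% DMSO per the labels' protocols, while the series' design text names another DMSO share. The 6 libraries of both formulas at 500 µg/mL, a further 5-fold dose step, are set beside the lower step. The doses are of whole dried extract, so the amount of any single herb or compound in either formula is unknown here. Whether the replicate libraries are separate cultures is not stated, so each p-value covers the spread among these libraries alone, which may be technical. The sample codes of the vehicle libraries belong to another set than those of the treated ones, so in any value set beside vehicle the treatment and that code set cannot be told apart.

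Of the 76 genes called higher at 100 than at 20 µg/mL, 30 are on 6 lists of cytokine and NF-kappa B genes. The lists hold 89 of the 17840 genes tested. They were chosen by name with earlier results of these data known, so the overlap is a description and not a test. Most of the genes that rose furthest are on these lists. Neither the binding nor the activity of NF-kappa B was measured. In resting cells this family of transcription factors (RELA, RELB, REL, NFKB1 and NFKB2) is held in the cytoplasm by inhibitor proteins such as the product of NFKBIA; cytokine and microbial signals switch on a kinase complex that has the inhibitor degraded, and the freed factors enter the nucleus and bind short DNA sites near genes for chemokines, cytokines, adhesion molecules and survival proteins. Several of the induced genes, among them NFKBIA and TNFAIP3, encode brakes on the same pathway. Astrocytes and astrocytoma cells are known to answer interleukin 1 and tumour necrosis factor through this route with CXCL8, IL6, CCL2 and ICAM1.

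Total counts ran from 23448072 to 37822389 in the 12 libraries, and the mitochondrial chromosome took 6.43% to 7.67% of them. The labelled cell type was checked against glial markers. GFAP, the classical astrocyte filament, reached at most 0.143 CPM (a count scaled to its library total), S100B at most 0.171, and SOX2 had a median of 0. VIM, an intermediate filament found in many mesenchymal and glial cells, had a median of 4941.4 CPM, the surface receptor CD44 2801.2 and the glial transcription factor SOX9 67.7. The defining astrocyte markers GFAP, S100B, AQP4 and ALDH1L1 were thus at or near 0 in these libraries, and GFAP was too low to be tested. Summed over 16 glial genes the level was 8044.4 to 8184.2 CPM at 20 µg/mL and 8054.3 to 8357.8 at 100. Most of that sum is VIM and CD44, so it is no measure of glial identity. Of the 16 genes, 7 stayed under 1 CPM in all 12 libraries. For 10 immune cell genes the sums were 160.1 to 180.4 and 157.3 to 186 CPM, with the macrophage genes CD163 and TYROBP at 0, PTPRC, the leukocyte phosphatase CD45, at 9.88 to 12.1, CSF1R at 2.01 to 3.36 and the lysosomal CD68 at 143.1 to 171.2, and for 11 endothelial and epithelial genes 678.9 to 759.5 and 634.5 to 731.8. The last list holds KRT18, which is described among the falls.

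Sequence just upstream of 5 of the genes is printed first, because a reader of the values below may want to see their motif matches. These 5 were picked by name, and the gene lists were made by name, not from such sites. All 5 were called higher and have a match, so they do not stand for the called genes as a whole. The stretches are from RefSeq on GRCh38.p14, end at the base before the transcript start, and carry in capitals each match to GGNNNTTCC, the core of the NF-kappa B site, on either strand.
CXCL8, chr4:73740419-73740568, plus strand: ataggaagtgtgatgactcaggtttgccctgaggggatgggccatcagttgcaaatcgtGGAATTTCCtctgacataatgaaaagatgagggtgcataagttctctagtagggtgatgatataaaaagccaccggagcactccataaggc
CXCL1, chr4:73869243-73869392, plus strand: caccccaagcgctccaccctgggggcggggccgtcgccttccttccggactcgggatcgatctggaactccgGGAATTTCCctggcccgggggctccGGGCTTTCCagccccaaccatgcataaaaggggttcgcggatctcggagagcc
IL6, chr7:22727050-22727199, plus strand: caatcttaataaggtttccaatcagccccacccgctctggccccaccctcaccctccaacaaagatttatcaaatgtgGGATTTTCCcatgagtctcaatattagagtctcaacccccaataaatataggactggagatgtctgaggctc
NFKBIA, chr14:35404750-35404899, minus strand: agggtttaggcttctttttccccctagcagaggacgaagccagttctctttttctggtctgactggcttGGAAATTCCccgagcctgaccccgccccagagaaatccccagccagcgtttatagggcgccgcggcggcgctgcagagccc
ICAM1, chr19:10270920-10271119, plus strand: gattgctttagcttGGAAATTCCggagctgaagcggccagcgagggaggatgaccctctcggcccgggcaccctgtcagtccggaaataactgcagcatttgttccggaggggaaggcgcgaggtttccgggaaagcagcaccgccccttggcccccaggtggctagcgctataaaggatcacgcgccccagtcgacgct

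Counted back from the start, the matches lie at -91 to -83 in CXCL8, at -78 to -70 and -53 to -45 in CXCL1, at -72 to -64 in IL6, at -81 to -73 in NFKBIA and at -186 to -178 in ICAM1. NFKBIA has another match at -242 to -234, outside the printed stretch. ID2, NFKB1 and NFKBIZ, which were not called between 20 and 100 µg/mL, also have matches in the 250 bases before the start. In the 250 bases before the start, the motif was found in 20 of 58 genes (34.5%) that were higher at 100 than at 20 µg/mL and had an entry in the promoter table, out of 76 such genes. It was found in 1 of 10 matched genes (10.0%) that were lower, out of 16, in 2374 of 12090 matched genes among all those tested (19.6%), and in 4678 of all 27305 promoters of that length (17.1%). These shares are descriptions of letters in a window; a match is not evidence of binding in these cells, and binding was not measured.

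From 20 to 100 µg/mL the cells gained messenger RNA of chemokines, cytokines, NF-kappa B feedback genes and inflammatory effector genes, and few genes of any kind were lower. Of 17840 genes tested, 92 (0.516%) were called at an adjusted p under 0.05, 76 of them higher (0.426%) and 16 lower (0.0897%). CXCL8 and CXCL1 were the 2 called genes that moved at least 2-fold, 9 moved at least 1.5-fold, and 58 moved less than 1.2-fold. The smallest called change was 1.07-fold. In the 10287 genes whose average level was 3 or more in log2 CPM, the 95% interval of the change had a median reach of 0.073 on the log2 scale to either side. The 6 libraries at 100 µg/mL lay all above the 6 at 20 for 60 of the 76 higher genes, and all below them for 13 of the 16 lower ones, where over all genes 0.561% and 0.28% were separated in that way. Without regard to adjustment 1124 genes (6.3%) had a p under 0.05. RNA was measured from the whole culture, so fewer cells of one kind and less RNA per cell cannot be told apart.

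Chemokines, the secreted ligands that draw leukocytes, led the change. Of 10 tested chemokine genes 7 rose (all genes 0.426%), 0 fell, and the list's median log2 fold change was 0.64, where the median of all genes was 0.00. CXCL8 (chromosome 4, 73740506 to 73743716 in GRCh38), which draws neutrophils, stood at 12.9, 11 and 12.1 CPM in Palmul-tang and at 10.5, 12.9 and 11.3 in Sibjeondaebo-tang at 20 µg/mL. At 100 µg/mL it stood at 30, 29.3 and 29.3 CPM in Palmul-tang and at 33.3, 34.8 and 28.3 in Sibjeondaebo-tang. Every library at 100 lay above every library at 20, and the vehicle libraries, at 10.1, 12.7 and 9.88 CPM, lay below every library at 100, with 2 of the 3 also below the lowest at 20. The pooled rise was 2.63-fold, or 1.39 ± 0.074 on the log2 scale (SE, n = 6 per dose, adjusted p = 1.93e-09, from the quasi-likelihood test of edgeR, adjusted by Benjamini-Hochberg over all genes). CXCL1 (chromosome 4, 73869393 to 73871242), another neutrophil chemokine, ran from 0.462 to 0.856 CPM (median 0.545) at 20 and from 1.18 to 2.08 (median 1.7) at 100, and rose 2.76-fold (log2 1.47 ± 0.174, adjusted p = 1.19e-06). CXCL3 rose by 0.85 ± 0.170 on the log2 scale and CXCL5 by 0.66 ± 0.141, both at levels under 3 CPM. The CXCL5 call was lost without Palmul-tang 20 replicate 1, Palmul-tang 100 replicate 2, Sibjeondaebo-tang 20 replicate 1 or Sibjeondaebo-tang 100 replicate 2 (adjusted p = 0.0658, 0.0796, 0.0732 and 0.102). The neutrophil chemokine genes thus moved in 1 direction, at low levels except for CXCL8.

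CCL2 (chromosome 17, 34255218 to 34257203), which draws monocytes, ran from 26.8 to 32.9 CPM (median 29.5) at 20 µg/mL and from 38.1 to 40.9 (median 39.5) at 100. The groups did not overlap, and the rise was 1.33-fold (log2 0.41 ± 0.039, adjusted p = 9.99e-09). Its vehicle libraries, at 40.8, 39 and 42.4 CPM, lay at the level of 100 µg/mL and above that of 20. CCL5, which draws T cells and monocytes, rose by 0.59 ± 0.124 on the log2 scale (adjusted p = 0.0135). It ran from 1.89 to 2.83 CPM at 20 and from 2.82 to 4.03 at 100, with the ranges overlapping by 1 pair of libraries. The CCL5 call was lost without Palmul-tang 20 replicate 2, Palmul-tang 100 replicate 1, Sibjeondaebo-tang 20 replicate 3 or Sibjeondaebo-tang 100 replicate 3 (adjusted p = 0.0607, 0.0838, 0.0557 and 0.06). CXCL2 had a change of 0.62 ± 0.147 on the log2 scale (adjusted p = 0.0379), and its call was lost when any library but Sibjeondaebo-tang 20 replicate 3 or Sibjeondaebo-tang 100 replicate 3 was left out (adjusted p up to 0.151). CXCL1, CXCL2 and CXCL3 are close paralogs, and the counting could split reads between them, so their separate values are uncertain. CCL20 was too low to be tested.

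Among cytokines and growth signals 5 of 15 tested genes rose (all genes 0.426%), 0 fell, and the list's median was 0.38. IL6 (chromosome 7, 22725884 to 22732002), an inflammatory cytokine that acts through STAT3, stood at 7.45, 5.78 and 6.56 CPM in Palmul-tang and at 4.98, 5.92 and 6.16 in Sibjeondaebo-tang at 20 µg/mL. At 100 µg/mL it stood at 8.04, 9.67 and 9.39 CPM in Palmul-tang and at 9.11, 9.09 and 8.83 in Sibjeondaebo-tang. No library at 100 reached down to the highest at 20, which was Palmul-tang replicate 1, and vehicle lay at 5.63, 6.3 and 5.63. IL6 rose 1.47-fold (log2 0.56 ± 0.066, adjusted p = 1.32e-06). IL1B, an apical inflammatory cytokine, ran from 4.45 to 5.65 CPM at 20 and from 6.08 to 8.2 at 100, and rose 1.41-fold (log2 0.49 ± 0.077, adjusted p = 1.94e-04). IL32, a cytokine of humans with no rodent counterpart, went from a median of 8.99 to 12.4 CPM and rose by 0.48 ± 0.054 on the log2 scale (adjusted p = 4.30e-07).

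LIF and IL11 belong to the same cytokine family as IL6, whose members signal through gp130. LIF (chromosome 22, 30240447 to 30246851) ran from 32.9 to 39.6 CPM (median 34.8) at 20 µg/mL and from 46.5 to 50.5 (median 48.5) at 100. It rose 1.37-fold (log2 0.45 ± 0.042, adjusted p = 3.98e-08), with no overlap between the doses. Its vehicle libraries, at 61, 57.2 and 52.7 CPM, lay above both doses, so the rise went from a level under vehicle towards it. IL11 rose by 0.23 ± 0.039 (adjusted p = 0.00193), from 97.2 ± 5.65 CPM (SD, n = 6) at 20 to 114.2 ± 7.15 at 100, beside 103.2 ± 4.15 (SD, n = 3) in vehicle; the call was lost when only the 12 compared libraries were fitted (adjusted p = 0.0538).

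**Figure D1:**
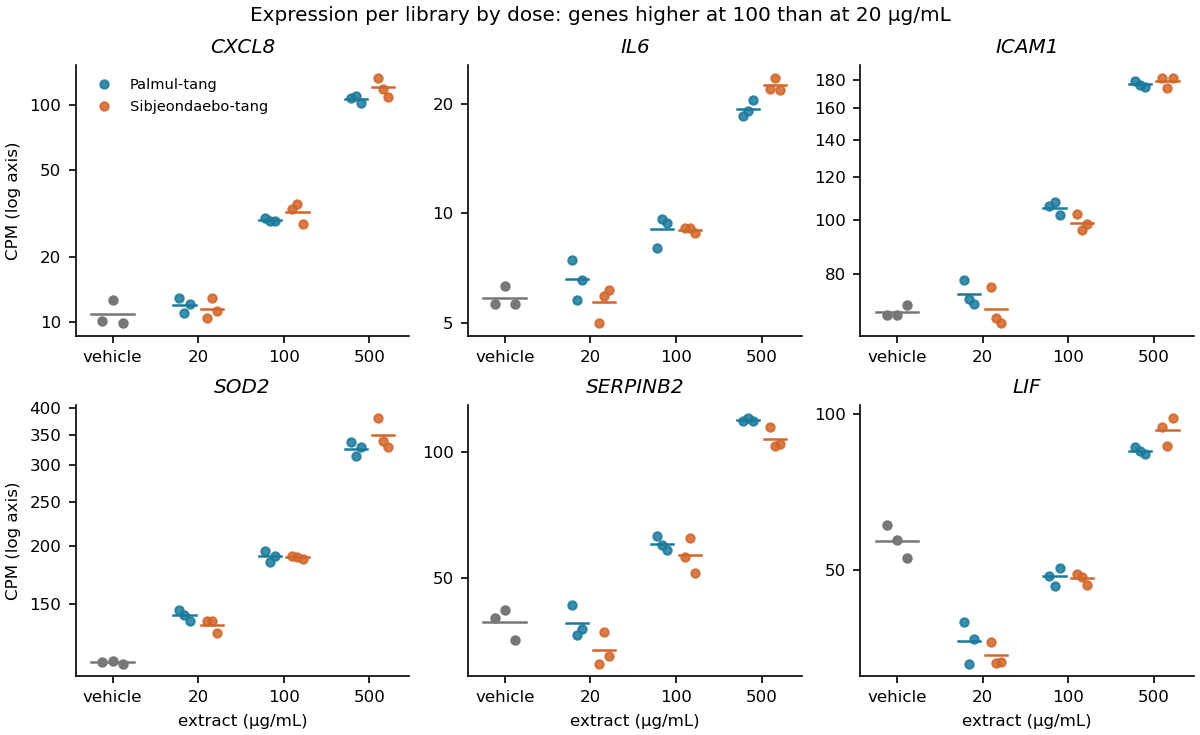
CPM of CXCL8, IL6, ICAM1, SOD2, SERPINB2 and LIF (log axes) in each library by dose in µg/mL; points are libraries, coloured by formula, with vehicle in grey, and lines are group means (n = 3). In all 6 genes every library at 100 µg/mL lies above every library at 20; LIF at 20 lies below vehicle.

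Receptors and the proteins that relay their signals moved little. Of 20 tested receptor and adaptor genes 2 rose (all genes 0.426%) and 0 fell, with a median of 0.03. TRAF1, an adaptor of tumour necrosis factor receptors that NF-kappa B itself induces, ran from 9.33 to 11.1 CPM at 20 µg/mL and from 11.4 to 12.9 at 100 (log2 0.25 ± 0.050, adjusted p = 0.0068). IRAK2, a kinase of interleukin 1 and Toll-like receptors, ran from 15.7 to 17 CPM and from 17.8 to 20.5 (log2 0.21 ± 0.043, adjusted p = 0.00955). The IRAK2 call was lost without Palmul-tang 100 replicate 1 (adjusted p = 0.0807), and the vehicle libraries of this gene, at 23.1, 20.8 and 22.4 CPM, lay above both doses.

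Of the 11 genes of NF-kappa B subunits and their kinases, all tested, 2 rose (all genes 0.426%) and 0 fell, with a median of 0.02. Those 2 are the partners of the noncanonical branch. NFKB2 (chromosome 10, 102394110 to 102402529) ran from 26.1 to 31.1 CPM (median 29) at 20 µg/mL and from 33.3 to 37.2 (median 34.8) at 100, a log2 fold change of 0.28 ± 0.038 (adjusted p = 1.25e-05). RELB (chromosome 19, 45001430 to 45038198) ran from 16.9 to 20.5 CPM and from 22.6 to 23.7, with 0.30 ± 0.043 (adjusted p = 3.45e-05). For both genes the doses did not overlap. NFKB1, which encodes p105 and p50, had a log2 fold change of 0.08 (95% interval -0.00 to 0.17, adjusted p = 0.826). RELA, the main activating subunit, had 0.02 (95% interval -0.04 to 0.08, adjusted p = 0.996), at 78.1 ± 1.55 CPM (SD, n = 6) at 20 and 79.3 ± 1.2 at 100. These intervals hold no change larger than the upper bounds given.

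The brakes of the pathway rose with its ligands. Of 16 tested inhibitor and feedback genes 6 rose (all genes 0.426%) and 0 fell, with a median of 0.15. NFKBIA (chromosome 14, 35401511 to 35404749), which encodes the inhibitor I kappa B alpha, ran from 47.3 to 50.8 CPM (median 49.7) at 20 µg/mL and from 56.4 to 61.6 (median 60) at 100. It rose 1.21-fold (log2 0.28 ± 0.029, adjusted p = 1.26e-07), and vehicle lay at 44.8, 47.8 and 47 CPM. TNFAIP3 (chromosome 6, 137867188 to 137883312), which encodes the ubiquitin-editing enzyme A20, ran from 23.5 to 27.5 CPM (median 24.9) and from 31.7 to 32.8 (median 32.2). Its rise of 1.28-fold (log2 0.36 ± 0.035, adjusted p = 2.84e-08) left a gap between the doses larger than the range within either. BIRC3, an inhibitor of apoptosis that also restrains noncanonical signalling, rose 1.31-fold, from 14 ± 0.974 to 18.3 ± 1.31 CPM (SD, n = 6 each, adjusted p = 6.66e-06).

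IER3, an early response gene that modulates survival, had the largest change of this group. It ran from 1.43 to 1.97 CPM at 20 µg/mL and from 2.54 to 3.51 at 100, and rose 1.79-fold (log2 0.84 ± 0.11, adjusted p = 7.73e-06). ZC3H12A, the ribonuclease Regnase-1 that destroys cytokine messages, rose by 0.26 on the log2 scale and TNIP1, a partner of A20, by 0.17. NFKBIZ, a nuclear member of the inhibitor family that NF-kappa B needs at genes such as IL6, had 0.19 ± 0.064 and was not called (adjusted p = 0.358).

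Of 17 tested effector genes of the response 8 rose (all genes 0.426%) and 0 fell, with a median of 0.22. ICAM1 (chromosome 19, 10270835 to 10286615), the adhesion molecule that leukocyte integrins bind, stood at 77.9, 72.1 and 70.4 CPM in Palmul-tang and at 75.7, 66.6 and 65 in Sibjeondaebo-tang at 20 µg/mL. At 100 µg/mL it stood at 106.2, 107.8 and 102.2 CPM in Palmul-tang and at 102.5, 96.1 and 98.5 in Sibjeondaebo-tang. The doses were far apart in both formulas, and ICAM1 had the smallest p of all: 1.43-fold, log2 0.52 ± 0.032, adjusted p = 2.33e-13. SOD2 (chromosome 6, 159669057 to 159745186), the mitochondrial superoxide dismutase, ran from 129.6 to 145.3 CPM (median 137.5) and from 184.9 to 195.6 (median 189.8). It rose 1.37-fold (log2 0.46 ± 0.029, adjusted p = 4.68e-13), and vehicle, at 111.7, 112.7 and 111.1 CPM, lay below both doses. SERPINB2 (chromosome 18, 63871692 to 63903890), an inhibitor of plasminogen activators, ran from 31.3 to 43.1 CPM and from 51.4 to 62.9, and rose 1.61-fold (log2 0.69 ± 0.055, adjusted p = 4.24e-07).

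C3, the central complement protein, rose 1.22-fold, from 53.6 ± 3.3 CPM (SD, n = 6) at 20 µg/mL to 65.6 ± 1.53 at 100 (adjusted p = 1.13e-07). PTGS2, which encodes the inducible cyclooxygenase COX-2, ran from 57.5 to 68.3 CPM and from 72.5 to 83.1 and rose 1.26-fold (log2 0.34 ± 0.037, adjusted p = 4.80e-07). Like LIF it lay below vehicle at both doses, where vehicle stood at 94.3, 94.1 and 90.6 CPM. PTX3, a secreted pattern receptor, rose by 0.24 ± 0.038 in log2 terms (adjusted p = 2.68e-04), and the doses overlapped, 34.8 to 43.3 CPM and 43.2 to 48.8. MMP1, interstitial collagenase, rose by 0.22 ± 0.033 (adjusted p = 8.93e-05), from 58.1 ± 0.934 to 67.7 ± 3.46 CPM (SD, n = 6 each). CLDN1, a tight junction protein, had 0.29 ± 0.064 (adjusted p = 0.0175), a call lost without Palmul-tang 20 replicate 1 or 2, Palmul-tang 100 replicate 1 or 2, Sibjeondaebo-tang 20 replicate 2 or 3, or Sibjeondaebo-tang 100 replicate 2 (adjusted p up to 0.0886) and with DESeq2 in place of edgeR (adjusted p = 0.144).

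Over the 6 lists of ligands, receptors, subunits, inhibitors and effectors together, 30 of 89 tested genes rose and 0 fell. In these lists 71 genes had a positive log2 fold change, with a median of 0.14. Among all 17840 genes 76 rose (0.426%), 9009 had a positive change and the median was 0.00. Without Sibjeondaebo-tang 100 replicate 2, which stands apart in interferon response genes, 27 of the 89 rose and their median was 0.12. Among the called genes outside these lists, C1QTNF1, a secreted relative of adiponectin, went from 22.6 ± 1.26 to 29.3 ± 1.26 CPM (SD, n = 6 each, log2 0.37 ± 0.047, adjusted p = 3.97e-06). SQOR, a mitochondrial enzyme that oxidises hydrogen sulfide, had 0.38 ± 0.077 (adjusted p = 0.00725, and 0.0509 without Sibjeondaebo-tang 100 replicate 2). Other genes outside these lists also rose with no overlap between the doses. Among them KRTAP1-5, a keratin-associated gene, had 0.60, at an average level of 0.74 in log2 CPM. IGFBP1 had 0.37, INHBA 0.31 and LRRN3 0.30. Exons of IL6, IER3, ICAM1, LIF, SOD2, TNFAIP3, PTX3 and, among genes named further on, SAMD11, KRT18, EGR3, GREM1, ID2, ALDH1A3, TIPARP, THBS1, DUSP6 and IFIT2 overlap annotated genes on the opposite strand. On the same strand, exons of SERPINB2, SOD2, IL32, SQOR, FOXO1, PPP2R2B, PKIB, ALDH1A3 and IFIT2 overlap another entry. The library kit keeps the strand but the counting strand is not given in the sources used here, so part of the counts of these genes could belong to the partner.

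The 16 genes that were lower at 100 µg/mL than at 20 had log2 fold changes between -0.33 and -0.11 and were spread over many roles. SAMD11 (chromosome 1, 923928 to 944581), a gene with a sterile alpha motif, stood at 69.2, 75 and 68.4 CPM in Palmul-tang and at 78.5, 78.1 and 78.5 in Sibjeondaebo-tang at 20 µg/mL. At 100 µg/mL it stood at 62.1, 61.1 and 61.6 CPM in Palmul-tang and at 63.5, 65.7 and 63.8 in Sibjeondaebo-tang, below every library at the lower dose. It fell by 0.24 on the log2 scale (SE 0.033, adjusted p = 2.02e-05), and vehicle lay at 76.6, 81.2 and 85.8 CPM. SYTL5, of vesicle traffic, fell by 0.25 (adjusted p = 1.09e-04), from 36.3 ± 1.29 to 30.6 ± 1.46 CPM (SD, n = 6 each). FOXO1, a transcription factor that insulin signalling restrains, ran from 13.2 to 15.1 CPM at 20 and from 11.3 to 12.8 at 100 and fell by 0.24 (adjusted p = 0.00966). SELENOW, a small selenoprotein, ran from 59.1 to 66 CPM and from 53.4 to 56.8 and fell by 0.19 (adjusted p = 3.11e-04).

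KRT18, a keratin of simple epithelia, ran from 152 to 157.2 CPM at 20 µg/mL and from 132.8 to 145 at 100, under the vehicle values of 185.2, 185.8 and 183.1, and fell by 0.15 (adjusted p = 1.23e-04). PPP2R2B, a regulatory subunit of protein phosphatase 2A, fell by 0.24 (adjusted p = 0.00213), and KLHL4, a kelch protein, fell by 0.17 (adjusted p = 0.002). For all 6 of SAMD11, SYTL5, FOXO1, SELENOW, KRT18 and KLHL4 the doses did not overlap. HR, a nuclear receptor corepressor, had -0.25 ± 0.053 (adjusted p = 0.0131), a call lost without Palmul-tang 100 replicate 2 or Sibjeondaebo-tang 100 replicate 2 (adjusted p = 0.0729 and 0.0602). EGR3, an immediate early transcription factor, had -0.26 ± 0.063 (adjusted p = 0.041). Its call held only without Palmul-tang 20 replicate 2, Palmul-tang 100 replicate 3 or Sibjeondaebo-tang 100 replicate 2, and was lost without each of the other 9 libraries (adjusted p up to 0.169).

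SELENBP1, a methanethiol oxidase, had the most negative change, -0.33 ± 0.079 (adjusted p = 0.0425), with doses that overlapped, and its call was lost without any library but Sibjeondaebo-tang 20 replicate 2 or Sibjeondaebo-tang 100 replicate 1 (adjusted p up to 0.237). PKIB, an inhibitor of protein kinase A, had -0.23 ± 0.052 (adjusted p = 0.0208), a call lost without Palmul-tang 20 replicate 1 or 2, Palmul-tang 100 replicate 1 or 2, Sibjeondaebo-tang 20 replicate 3 or Sibjeondaebo-tang 100 replicate 1 (adjusted p up to 0.117). With DESeq2 in place of edgeR, HR, EGR3, SELENBP1 and PKIB were not called (adjusted p = 0.0991, 0.228, 0.22 and 0.187), and PKIB was not called with no filter on low counts (adjusted p = 0.0522).

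**Figure D2:**
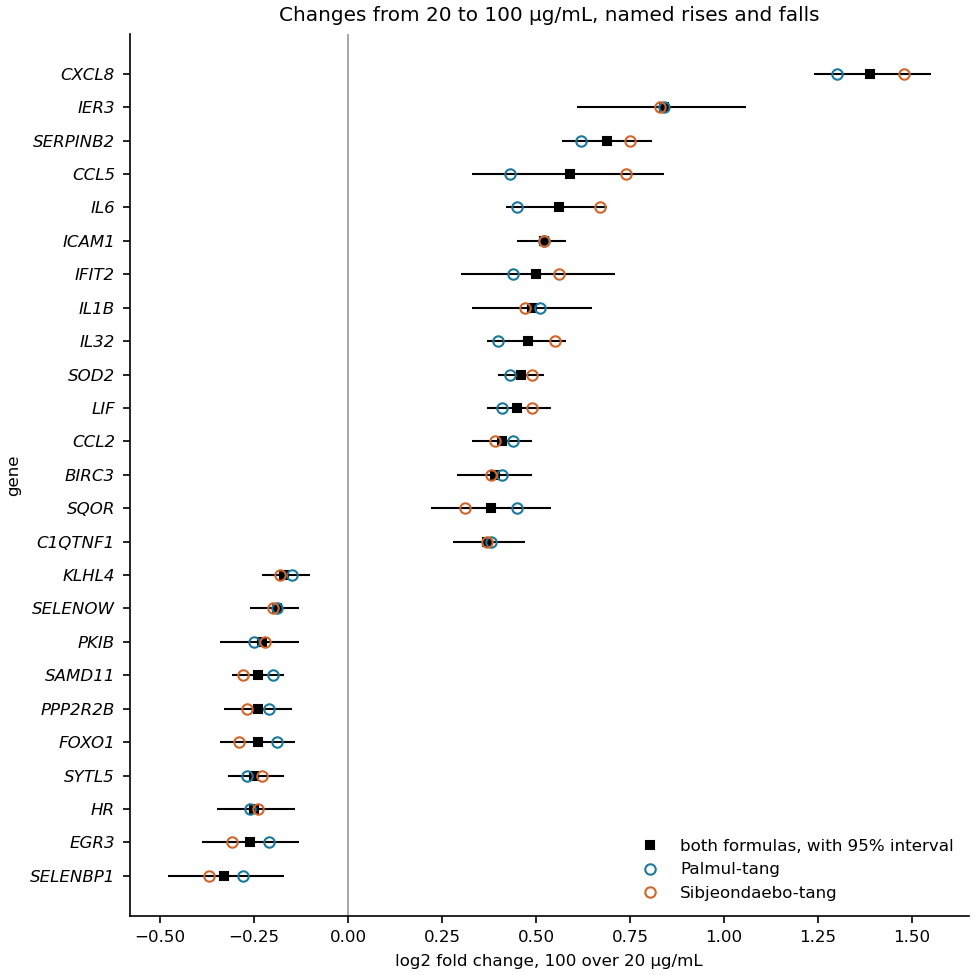
Log2 fold change from 20 to 100 µg/mL of the 15 rises and 10 falls that the naming rule picked; black squares with lines are both formulas pooled with the 95% interval, open circles each formula alone. CXCL8 stands apart at 1.39, the other rises lie between 0.37 and 0.84 and the falls between -0.33 and -0.17, with both formulas on the same side of 0 throughout.

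Most lists of other responses had few calls or none at this step. Over all genes 0.426% were called higher and 0.0897% lower. Of 32 immediate early and ERK feedback genes 0 rose and 1, EGR3, fell, with a median of 0.02; FOSL1, a FOS family factor, had 0.09 on the log2 scale (adjusted p = 0.312) and DUSP6, the ERK phosphatase, 0.13 (adjusted p = 0.39). Of 24 NRF2 targets, the genes of the oxidant response, 0 were called, with a median of 0.00, and HMOX1, heme oxygenase, had 0.06 (95% interval -0.01 to 0.13). None was called among 26 mitosis genes (median -0.00), 25 hypoxia and glycolysis genes (0.01), 23 genes of cholesterol synthesis and uptake (-0.01), 18 chaperones of the endoplasmic reticulum (-0.01) and 10 glial genes (0.01). MKI67, the proliferation marker, had 0.03 (95% interval -0.03 to 0.10).

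Of 6 aryl hydrocarbon receptor targets 2 rose (all genes 0.426%) and 0 fell, with a median of 0.10. ALDH1A3, a retinaldehyde dehydrogenase, ran from 705.3 to 783.8 CPM at 20 µg/mL and from 802.4 to 864.1 at 100 (log2 0.16 ± 0.023, adjusted p = 4.23e-05), beside 669.6 to 677.4 in vehicle. TIPARP, a mono-ADP-ribosyltransferase, had 0.13 ± 0.031 (adjusted p = 0.0332), a call lost without any library but Palmul-tang 100 replicate 1 or Sibjeondaebo-tang 20 replicate 2 (adjusted p up to 0.217). CYP1A1, the classical target enzyme of the receptor, had 0.06 (95% interval -0.31 to 0.44) at levels near 1 CPM, an interval too wide to exclude a change of the size seen for the other targets.

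Of 22 matrix and TGF-beta targets 2 rose and 0 fell, with a median of -0.00. THBS1, thrombospondin 1, had 0.11 ± 0.025 (adjusted p = 0.0188) and lost its call without any of 7 libraries (adjusted p up to 0.158): Palmul-tang 20 replicates 1 and 2, Palmul-tang 100 replicate 1, Sibjeondaebo-tang 20 replicates 1 and 3 and Sibjeondaebo-tang 100 replicates 1 and 2. It was not called when only the 12 compared libraries were fitted (adjusted p = 0.0706). Of 15 ATF4 and amino acid response genes 1 rose, STC2, the glycoprotein stanniocalcin 2, from 501.3 ± 9.07 to 558.7 ± 18.1 CPM (SD, n = 6 each, log2 0.16 ± 0.022, adjusted p = 3.45e-05). Of 5 metallothionein and zinc export genes MT2A alone was called, with 0.28 ± 0.051 (adjusted p = 0.0188), and not without Palmul-tang 20 replicate 1, Palmul-tang 20 replicate 2 or Palmul-tang 100 replicate 1 (adjusted p = 0.0601, 0.062 and 0.0604); its family members are near-identical, so its value is uncertain.

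The interferon response list was moved most by 1 library. Of its 30 tested genes 24 were highest, among the 6 libraries at 100 µg/mL, in Sibjeondaebo-tang 100 replicate 2. There IFI44L stood at 63.1 CPM (34.8 to 40 in the other 5), IFIT1 at 22.3 (11.2 to 13.4) and ISG15 at 30.5 (19.2 to 22.8). With both formulas 27 of 30 log2 fold changes from 20 to 100 µg/mL were positive and the median was 0.17, and without that library 27 were positive and the median was 0.07. Palmul-tang alone had 21 positive changes and a median of 0.03. Sibjeondaebo-tang alone had 28 and 0.27, and 26 and 0.09 without the library. The difference between the formulas had a median of 0.28 over the list, and 0.05 without it. Leaving out Sibjeondaebo-tang 100 replicate 1 instead moved the list the other way. The median was then 0.23 with both formulas and 0.37 for the difference between them. In Sibjeondaebo-tang alone it was 0.40, with 4 genes called. In the fit on all libraries 1 gene of the list was called, IFIT2, an RNA-binding antiviral protein. IFIT2 ran from 6.12 to 8.65 CPM (median 6.97) at 20 µg/mL and from 8.55 to 11.1 (median 10.3) at 100, with 12, 9.04 and 7.93 in vehicle (log2 0.50 ± 0.099, adjusted p = 0.0166). The doses overlapped, and the call was lost without Palmul-tang 100 replicate 2, Sibjeondaebo-tang 20 replicate 1 or 2, or Sibjeondaebo-tang 100 replicate 1 or 2 (adjusted p up to 0.0766). From 100 to 500 µg/mL the list had 13 of 30 positive changes and a median of -0.00, and 24 positive and 0.07 without Sibjeondaebo-tang 100 replicate 2, so the order of the steps in this list rests on that library.

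**Figure D3:**
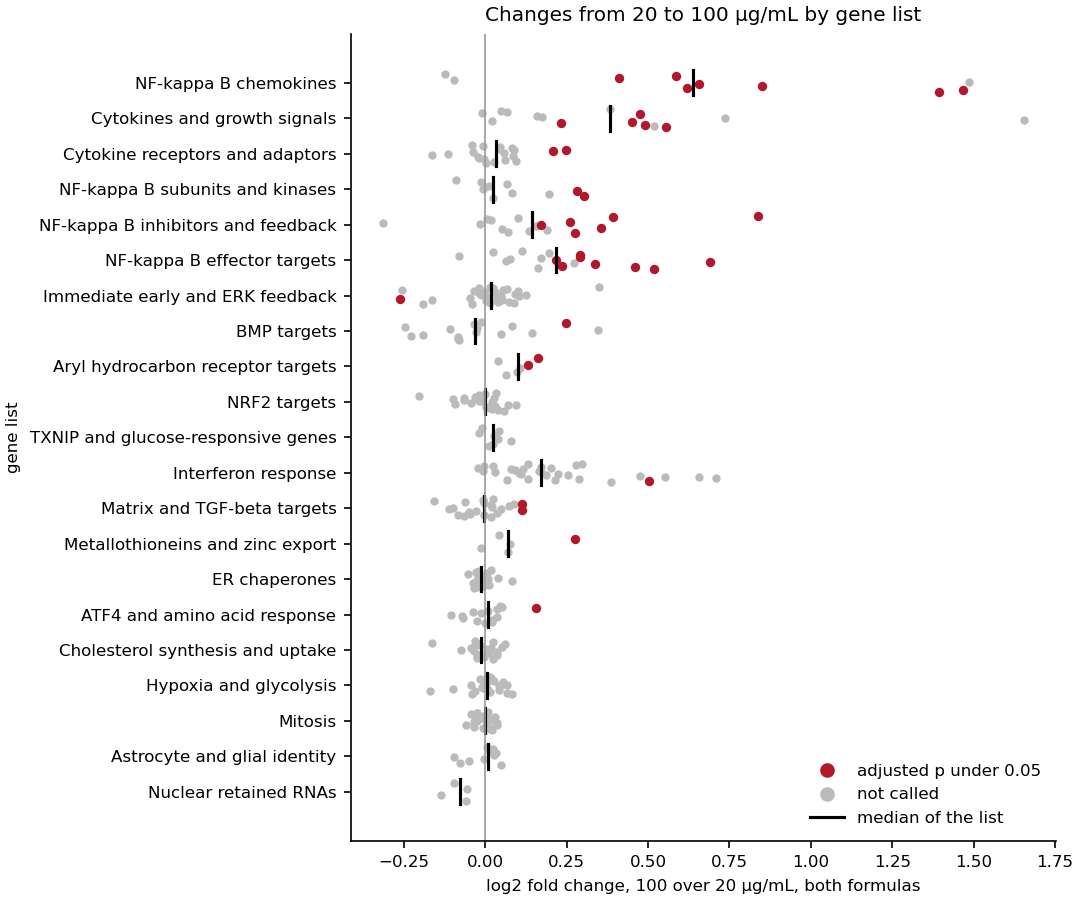
Log2 fold change from 20 to 100 µg/mL (both formulas) of every tested gene in 21 lists; each point is a gene, red where the adjusted p was under 0.05, and the bar is the list's median. The chemokine and cytokine lists have medians of 0.64 and 0.38, and lists such as mitosis, NRF2 targets and chaperones sit at 0.

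Palmul-tang and Sibjeondaebo-tang were then compared in their own change from 20 to 100 µg/mL, which rests on separate libraries. Tested alone, 29 genes (0.163%) were called in Palmul-tang and 37 (0.207%) in Sibjeondaebo-tang. Rises made up 26 of the Palmul-tang genes (0.146% of those tested) and falls 3 (0.0168%). For Sibjeondaebo-tang 33 were rises (0.185%) and 4 falls (0.0224%). Called in both were 21 genes, all higher, which is 72.4% of the first list and 56.8% of the second. Each of the 29 Palmul-tang genes moved to the same side of 0 under Sibjeondaebo-tang, and each of the 37 Sibjeondaebo-tang genes did so under Palmul-tang. The genes called higher in Palmul-tang had a median log2 fold change of 0.39 in that formula and of 0.37 in Sibjeondaebo-tang. Over those 10287 better expressed genes the changes in the formulas had a Pearson r of 0.250 and a Spearman rho of 0.154; genes are not independent replicates, and most of these changes lay within the error of the fit. Pooling called 48 genes that neither formula gave alone. Single libraries moved these counts: 15 genes were called in Palmul-tang without 100 replicate 1, 18 without 100 replicate 2, 19 without 20 replicate 2 and 17 without 20 replicate 3. In Sibjeondaebo-tang 22 were called without 20 replicate 1, 17 without 20 replicate 3 and 23 without 100 replicate 2. When low-count genes were kept, 51 and 63 were called.

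A test of the difference between the formulas' changes called 0 of 17840 genes (0%) in edgeR and 0 in DESeq2, with 541 (3.03%) at an unadjusted p under 0.05 in edgeR. When low-count genes were kept, edgeR called 9. In the better expressed genes the 95% interval of that difference reached 0.147 to either side at the median, before any adjustment for the number of genes. For CXCL8 the change was 1.3 ± 0.106 in Palmul-tang and 1.48 ± 0.104 in Sibjeondaebo-tang, and the difference of 0.18 had a 95% interval of -0.13 to 0.50. For ICAM1 both changes were 0.52, with an interval of the difference of -0.13 to 0.12. For IL6 the changes were 0.45 ± 0.094 and 0.67 ± 0.094, with an interval of -0.05 to 0.49. C3 had 0.35 and 0.23 (interval -0.25 to 0.00), STC2 0.10 and 0.21 (0.01 to 0.19), and CLDN1 0.18 and 0.41 (-0.03 to 0.49), all with an adjusted p of 1 for the difference. The intervals leave room for formula differences of up to 0.50 on the log2 scale in CXCL8 and of no more than 0.13 in ICAM1.

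The step from 100 to 500 µg/mL, equal in ratio to the lower one, is given beside it; both use the libraries at 100, so an error there moves the steps in opposite directions. From 100 to 500 µg/mL 1157 genes (6.49%) were called, 589 higher (3.3%) and 568 lower (3.18%). In the 6 cytokine and NF-kappa B lists 53 of 89 genes rose at that step and 3 fell, with a median of 0.22 beside 0.14 at the lower step. CXCL8 changed by 1.39 at the lower step and by 1.87 at the upper one, CXCL1 by 1.47 and 1.66, CCL2 by 0.41 and 0.86, IL6 by 0.56 and 1.21, ICAM1 by 0.52 and 0.80, SOD2 by 0.46 and 0.83, and PTX3 by 0.24 and 0.78. CXCL8 thus stood at a mean of 11.8 CPM at 20, 30.8 at 100 and 113 at 500. IL11 had 0.23 and 0.20, MMP1 0.22 and 0.22, CCL5 0.59 and 0.52, and STC2 0.16 and 0.11, about the same at each step.

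Whether the steps differ was tested as the upper change minus the lower one, which called 80 genes (0.448%), 33 with a more positive upper step (0.185%) and 47 with a more negative one (0.263%). Within the 6 cytokine and NF-kappa B lists 9 of 89 were more positive and 0 more negative. IL6 differed by 0.66 ± 0.108 (adjusted p = 7.21e-04), PTX3 by 0.55 ± 0.064 (adjusted p = 3.45e-06), CCL2 by 0.45 ± 0.065 (adjusted p = 9.60e-05), LIF by 0.43 ± 0.071 (adjusted p = 0.0011), SOD2 by 0.37 ± 0.050 (adjusted p = 3.75e-05) and ICAM1 by 0.28 ± 0.054 (adjusted p = 0.00549). CXCL8 had a difference of 0.48 (95% interval 0.23 to 0.72, adjusted p = 0.103) and CXCL1 of 0.19 (-0.36 to 0.74, adjusted p = 0.96), and neither was called. As a description of how early each gene moved, 42.7% of the log2 change of CXCL8 from 20 to 500 µg/mL had been made at 100, and 46.9% for CXCL1, 46.5% for IL32 and 52.9% for CCL5, beside 31.5% for IL6, 35.6% for SOD2 and 23.1% for PTX3. The count of 80 fell to 47, 50 and 51 without Palmul-tang 100 replicate 1, 2 or 3 and to 51 without Sibjeondaebo-tang 100 replicate 1, and it was 139 with no filter on low counts.

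**Figure D4:**
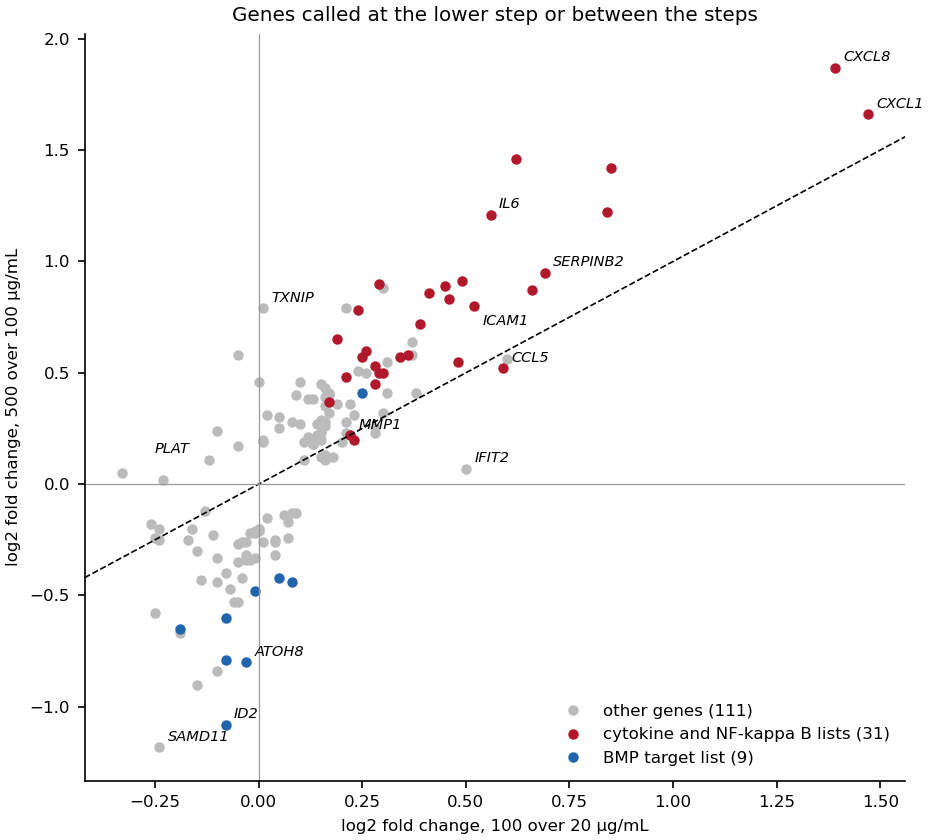
Log2 fold change at the lower step (x axis, 100 over 20 µg/mL) and at the upper step (y axis, 500 over 100 µg/mL) of 151 genes called at the lower step or between the steps; points are genes, the dashed line marks equal change, and both axes use the libraries at 100. Cytokine and NF-kappa B genes (31, red) lie to the right of 0, most of them above the line, and BMP targets (9, blue) other than GREM1 lie below 0 on the y axis, as ID2 and ATOH8 do.

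Genes of bone morphogenetic protein (BMP) signalling fell at the upper step, and 1 was called at the lower. BMP ligands act through SMAD transcription factors, and ID1, ID2, ID3, ATOH8 and SMAD7 are among their targets. At the lower step 1 of 16 BMP targets rose (all genes 0.426%), 0 fell and the median was -0.03. At the upper step 1 rose (all genes 3.3%), 12 fell (all genes 3.18%) and the median was -0.54. Of the 16, 8 had a more negative upper step (all genes 0.263%) and 0 a more positive one. ID2 (chromosome 2, 8678845 to 8684453), an inhibitor of basic helix-loop-helix factors, ran from 20.1 to 23.8 CPM (median 22.3) at 20 µg/mL, from 17 to 22.9 (median 21.4) at 100 and from 8.82 to 11 (median 9.97) at 500, with 22.6, 21.4 and 20 in vehicle. Its change was -0.08 (95% interval -0.19 to 0.02) at the lower step and -1.08 at the upper, and the difference of -1.0 ± 0.092 was called (adjusted p = 1.54e-08). ATOH8, a basic helix-loop-helix factor, had -0.03 and -0.80 (difference -0.76, adjusted p = 4.67e-04), ID3 -0.08 and -0.79 (difference -0.71, adjusted p = 0.00739) and ID1 -0.08 and -0.60 (difference -0.52, adjusted p = 0.00549). SMAD7, an inhibitor of the same pathway, had 0.05 and -0.42 (difference -0.47, adjusted p = 0.0107, and 0.104 without Palmul-tang 100 replicate 3). Not every target was near 0 at the lower step. ID4 had -0.23 and -0.91, and DLX3 had -0.25 and -1.04. In edgeR neither was called at the lower step (adjusted p = 0.786 and 0.657). Their step differences of -0.68 and -0.79 were not called either (adjusted p = 0.22 and 0.0574).

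GREM1, a secreted antagonist of BMP ligands, was the target that rose at the lower step, with 0.25 ± 0.052 (adjusted p = 0.0124), and its call was lost without Palmul-tang 20 replicate 2, Palmul-tang 100 replicate 1 or Sibjeondaebo-tang 20 replicate 3 (adjusted p = 0.062, 0.0814 and 0.0725). It ran from 16.3 to 20.8 CPM at 20 µg/mL and from 20.4 to 23.3 at 100, with 20.2 to 22.3 in vehicle.

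TXNIP (chromosome 1, 145992435 to 145996600), an inhibitor of thioredoxin and of glucose uptake, rose at the upper step and was not called at the lower. It ran from 8.44 to 10.1 CPM at 20 µg/mL, from 8.6 to 10.8 at 100 and from 14.6 to 17.4 at 500, with 9.66, 10.2 and 10.1 in vehicle. The lower step was 0.01 (95% interval -0.11 to 0.13) and the upper 0.79, a difference of 0.78 ± 0.102 (adjusted p = 2.27e-05). SAMD11 fell at both steps, by 0.24 and 1.18, and the difference was -0.93 ± 0.060 (adjusted p = 1.05e-12). PLAT, tissue plasminogen activator, had steps of opposite sign. It fell by 0.12 at the lower step (adjusted p = 0.00756) and rose by 0.11 at the upper (adjusted p = 0.00532). The difference was 0.23 ± 0.044 (adjusted p = 0.00549). Without replicate number 1 of both formulas, neither the PLAT lower step nor the difference was called (adjusted p = 0.432 and 0.228). An error in the libraries at 100 would move the steps in opposite directions. The PLAT mean went from 366.8 CPM at 20 to 336.6 at 100 and 362.9 at 500, beside 413.6 in vehicle, and the ranges at 20 and 100 overlapped.

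**Figure D5:**
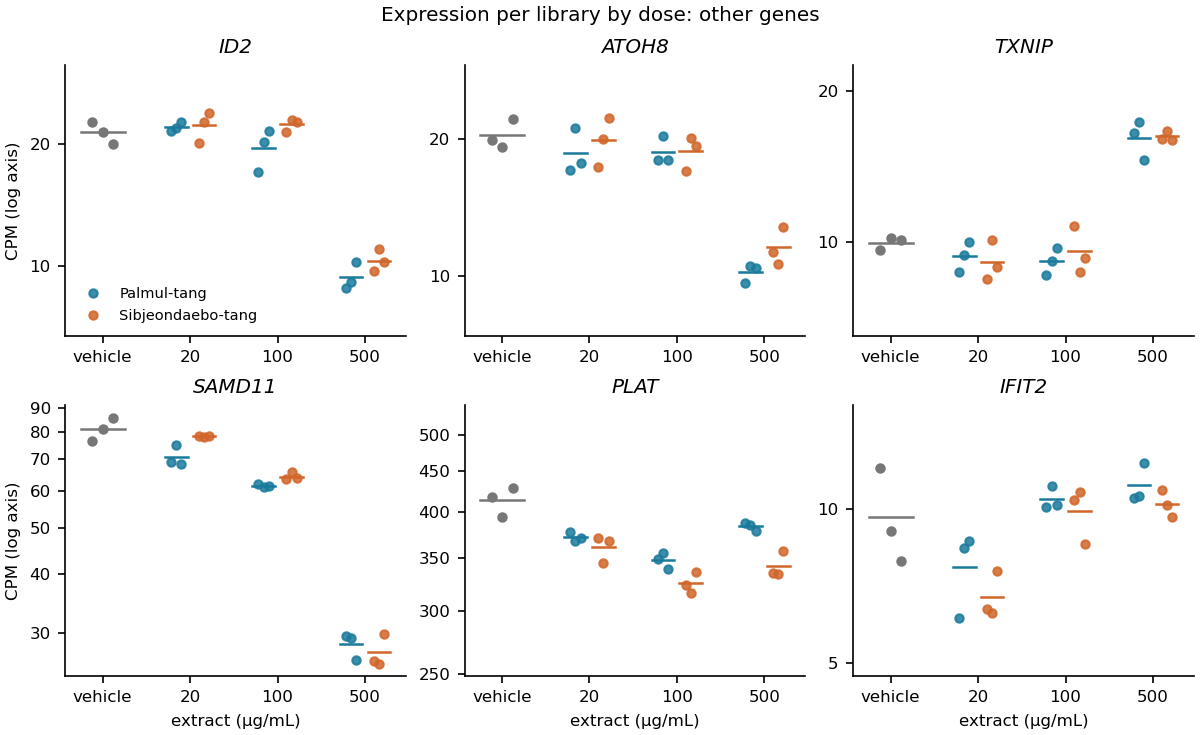
CPM of ID2, ATOH8, TXNIP, SAMD11, PLAT and IFIT2 (log axes) in each library by dose in µg/mL, with points, colours and mean lines as in the plot of inflammatory genes. ID2, ATOH8 and TXNIP at 100 µg/mL overlap with 20 µg/mL and with vehicle and lie apart from both at 500, SAMD11 moves at both steps, PLAT goes down and then up, and IFIT2 moves at the lower step.

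The other extracts had 1 library per dose among the 30 used here, so their values carry no replicate check and no test. CXCL8 stood at 5.38 CPM at 20 µg/mL, 8.58 at 100 and 14.7 at 500 in the water extract of Samul-tang, a smaller formula, and at 6.25, 8.45 and 19.1 in the ethanol extract of Poria Cocos. In the ethanol extract of Atractylodis Rhizoma it stood at 4.55, 6.83 and 8.07. Each of these libraries at 100 µg/mL lay below every library of the larger formulas at 20, which were all above 10 CPM. The same libraries at 100 µg/mL also lay below every vehicle library for this gene. Their sample codes belong to other sets than those of the larger formulas, so extract and code set cannot be told apart. ICAM1 stood at 51.1, 56.7 and 60.1 CPM in Samul-tang, at 52.9, 54.7 and 56.4 in Poria Cocos and at 54.6, 50.8 and 58.8 in Atractylodis Rhizoma. TXNIP stood at 8.41, 17.7 and 198.2 CPM in Poria Cocos, where the medium dose was already 2.1 times the low one.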

How the data were processed

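RNA of SW1783 cells was sequenced in 30 libraries with the MGIEasy RNA Directional kit as paired reads on an MGIseq instrument, per the labels' protocols. Per the submitters' processing notes, the tools were FastQC 0.11.9, Trim Galore 0.6.5, STAR 2.7.3a and RSEM 1.3.3, with hg38. The values deposited by the authors are expected counts per gene, which RSEM estimates by sharing out ambiguous reads: 24.0% of nonzero values were not whole, and they were rounded. The annotation release and counting strand are not given in the sources used here. The table has 279 columns; 30 were used, and 249 per-sample columns outside these samples were left out.

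Genes were filtered by edgeR's filterByExpr, leaving 17840 of 60675, and a model with 1 mean for each of 16 groups was fitted to the 30 libraries in edgeR 4.0.16 on R 4.3.3, with TMM scaling, so groups of 1 library borrow the spread of the others (median residual and prior degrees of freedom 33.7). The quasi-likelihood test of edgeR gave a p for each contrast, adjusted by Benjamini-Hochberg over all genes, with calls at 0.05. CPM use TMM scaling, except in the marker checks, which use total counts; log2 CPM have a prior count of 2. Intervals are at 95%. The code was tested on simulated data. Alternatives were DESeq2 (1.42.0) size factors or its Wald test, no filter, a replicate block, only the compared libraries, and left-out libraries. Total counts of 22568775 to 37822389 per library set the precision, which is lowest for genes near 1 CPM.

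Genes were named by a rule: the 15 largest called rises and 10 largest called falls whose average log2 CPM was 1 or more, up to 4 called genes per list, 5 genes each way for the difference between the steps, and a set chosen by name. CXCL5, IL11, TNIP1, ZC3H12A, MMP1, PLAT and SMAD7 were named after their values were seen. So were KRTAP1-5, IGFBP1, INHBA and LRRN3, which are not in the counts of named genes. The 23 lists hold 392 genes. The comparison, members and lists were chosen with earlier results of these data known. Positions are from GENCODE 29 on GRCh38, promoter sequences from RefSeq (GRCh38.p14). Chi-square tests between replicates of a group found none that agreed within sampling noise. The result of 1 named gene is not reported here.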

Additional observations from a re-analysis of the deposited data

Results flagged for a closer look

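In a test for a single library far from the other 5 at the same dose (Dixon's gap over range at 95%), applied to 73 named genes at both doses, which makes 146 groups of 6 libraries, 3 were marked; chance marks about 1 in 20 such groups. IFIT2 stood at 8.55 CPM in Sibjeondaebo-tang 100 replicate 3, below the 10.1 to 11.1 of the other libraries at 100 µg/mL. PLAT stood at 345.4 CPM in Sibjeondaebo-tang 20 replicate 2, below the 367.6 to 377.5 of the others at 20, and TMEM171, a transmembrane protein, stood at 3.39 CPM in Palmul-tang 100 replicate 1, below the 3.83 to 3.99 of the others at 100.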

How the results depend on the processing

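The pooled comparison of 100 with 20 µg/mL called 93 genes with DESeq2 size factors, 96 with the DESeq2 Wald test, 102 on the compared libraries and 128 with no filter, beside 92, of which 91, 78, 87 and 89 were called again. With no filter the count was 51 in Palmul-tang, 63 in Sibjeondaebo-tang, 9 for the formula difference and 139 for the difference between the steps. Leaving out libraries gave 45 to 96 genes for both formulas, 13 to 24 for Palmul-tang, 17 to 40 for Sibjeondaebo-tang, 0 for the formula difference, 635 to 1256 for 500 against 100 and 29 to 115 for the difference between the steps; 45, 48 and 73 for both formulas came without replicate number 1, 2 or 3 of every group, which leaves fewer libraries. The libraries were not treated as pairs, since not every pair of same-numbered libraries had deviations correlated over 0.1: 7 of 18 pairs did (range -0.196 to 0.202, median 0.0543, beside -0.0381 for 36 pairs of other numbers). The sample codes follow the number and 10 of 12 libraries were closest to one of their own number, a hint from the data, so some pairing is possible. A replicate block gave 106, 35, 53, 0, 1297 and 104 genes in the 6 comparisons, and IFIT2 was not called under it (adjusted p = 0.0536). The interferon list values without 1 library were added after seeing the data. Of 52 named genes called at the lower step, 36 were called without every single library in turn. No named gene reversed. The cause of these moves was not tested. Depth limits most the genes near 1 CPM, such as CXCL1, CXCL3 and CYP1A1.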
